A study of Mus musculus with 12 samples.

Results

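The miR-200 family and miR-205 are microRNAs of epithelial cells, the cells that line ducts and body surfaces, bile ducts included. The 8 mature microRNAs described here were chosen by name from 1982 names in a count table, 1915 of them mouse names: mmu-miR-200a-3p, mmu-miR-200a-5p, mmu-miR-200b-3p, mmu-miR-200b-5p, mmu-miR-200c-3p, mmu-miR-141-3p, mmu-miR-429-3p and mmu-miR-205-5p. The prefix mmu, for mouse, is left out from here on. The rule is a list of names, with no threshold on a measured value. The table holds small RNA sequencing counts of extracellular vesicles, the membrane-bound particles that cells shed, precipitated from plasma taken from male mice of the inbred strain C57BL/6J. One group of 6 libraries came from mice 8 days after bile duct ligation (BDL), which ties off the common bile duct and stops bile flow, and the other 6 from mice 8 days after a sham operation. No transgene, drug or other genotype is named for either group, and their age is not stated. The design text gives 6 animals per group, but the labels do not tie a library to an animal, and 2 libraries of a group always have the same first digit in their sample codes. P-values over 6 against 6 libraries therefore measure the spread between libraries, and would be too small if a shared digit marks a shared animal. The codes also end in 24 or 26, a suffix of unstated meaning that parts each group into 3 and 3, and each digit occurs once within a suffix.

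A microRNA is cut as a short double strand from the stem of a hairpin RNA. The strand from the left arm is named 5p and the one from the right arm 3p, and usually 1 of the strands is kept and the other is degraded. The kept strand pairs with messenger RNAs mainly through its seed, bases 2 to 8, and lowers their output. The miR-200 family is known for holding down the transcription factors ZEB1 and ZEB2, which switch epithelial cells towards a mesenchymal state, and it is made from a pair of separate gene clusters. miR-205, from a gene of its own, is best known from stratified epithelium such as skin and also acts on ZEB1 and ZEB2.

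The mature sequences are shown because members of different clusters share seeds and are nearly identical, which bears on every comparison between them. They are RefSeq sequences on GRCm38.p6, where all 8 members were found by name, written 5′ to 3′ with the seed in capitals.
miR-200b-3p: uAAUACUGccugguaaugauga
miR-200c-3p: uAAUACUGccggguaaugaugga
miR-429-3p: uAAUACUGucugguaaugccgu
miR-200a-3p: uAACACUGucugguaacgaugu
miR-141-3p: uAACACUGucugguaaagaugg
miR-200a-5p: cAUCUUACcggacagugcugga
miR-200b-5p: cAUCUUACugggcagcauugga
miR-205-5p: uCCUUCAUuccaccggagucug
The first 3 share the seed AAUACUG, the next 2 share AACACUG, and the 5p strands share AUCUUAC. The seeds AAUACUG and AACACUG differ at 1 base, C4U from miR-200a-3p to miR-200b-3p, counted from the 5′ end. Among the 1623 mouse names of the table with a RefSeq mature sequence, miR-205-5p was the only one with its seed. Over the 22 bases compared, miR-200b-3p and miR-200c-3p differ at 2 (U11G and A22G) and miR-200a-3p and miR-141-3p at 2 (C17A and U22G). How the authors' counting assigned a read that fits either of such a pair is not given in the sources used here, hence the split of reads within these pairs is uncertain.

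In the GENCODE M21 annotation of GRCm38 all 6 hairpins lie on the minus strand. Mir200b (chr4:156055681-156055750), Mir200a (chr4:156054896-156054985) and Mir429 (chr4:156053905-156053987) form 1 cluster, with gaps of 695 and 908 bases between neighbours. They lie in introns of the protein-coding gene Ttll10 and within the noncoding transcript gene Gm13648, in its introns for the first 2 and over an exon for Mir429. Mir200c (chr6:124718322-124718390) and Mir141 (chr6:124717914-124717985) form the other cluster, 336 bases apart, in an intron of the noncoding gene Gm15884, and Mir141 also overlaps an exon of Gm29008. Mir205 (chr1:193507463-193507530) lies in an exon of the long noncoding RNA gene 4631405K08Rik. So miR-200c-3p shares its seed with members of the chromosome 4 cluster, and its transcription unit with miR-141-3p. The table itself holds no coordinates, and the authors' genome build is not given in the sources used here.

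Total counts ran from 121003 to 3506914 per library. The BDL libraries with suffix 26 (BDL 2, 4 and 6) were shallow, at 121003 to 666310 counts, against 1635616 to 3506914 for BDL suffix 24 and 659302 to 2684636 for sham, so suffix and depth cannot be told apart within BDL. Levels are CPM, counts scaled to a library of 1e+06 after trimmed-mean (TMM) scaling. They are relative levels, so a rise or fall is one relative to the other names, and amounts in plasma were not measured. Where a name had 0 counts, up to 3 counts are allowed, a limit of 0.624 CPM in BDL 1 and 24 CPM in BDL 4. Such limits cover counting error only, since the counts are of reads after PCR. Of 341 names that passed a filter on low counts, 84 rose and 62 fell after BDL at an adjusted p under 0.05 (edgeR quasi-likelihood test with Benjamini-Hochberg adjustment). With upper-quartile scaling the split was 63 higher and 80 lower.

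After BDL, miR-205-5p and miR-200c-3p fell 3.85-fold and 3.07-fold, miR-200b-5p rose 3.09-fold, and the 2 most abundant members of the chromosome 4 cluster, miR-200a-3p and miR-200b-3p, did not pass the test. Of the 8 members, 5 passed the filter on low counts, and 2 of these were lower and 1 higher. Over all 341 names, 18.2% were lower and 24.6% higher by the same test. The member called higher, miR-200b-5p, passed the filter mostly through the BDL libraries, where it is high. miR-141-3p, miR-429-3p and miR-200a-5p did not pass the filter and are given by their counts and by an exact permutation test. That two-sided test compared all 924 assignments of 6 of the 12 libraries to a group, with p adjusted over 1348 names, and 3 of 8 members passed it, all lower: miR-205-5p, miR-200c-3p and miR-141-3p. By that test 2.74% of names were lower and 3.41% higher. These 3 calls were lost whenever 1 sham library was left out, with adjusted p from 0.0661 to 0.111. The CPM ranges of the groups did not overlap, with BDL lower, for these 3 members as listed, and for 2.74% of the 1348 names and 9.38% of the 341 names.

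**Figure D1:**
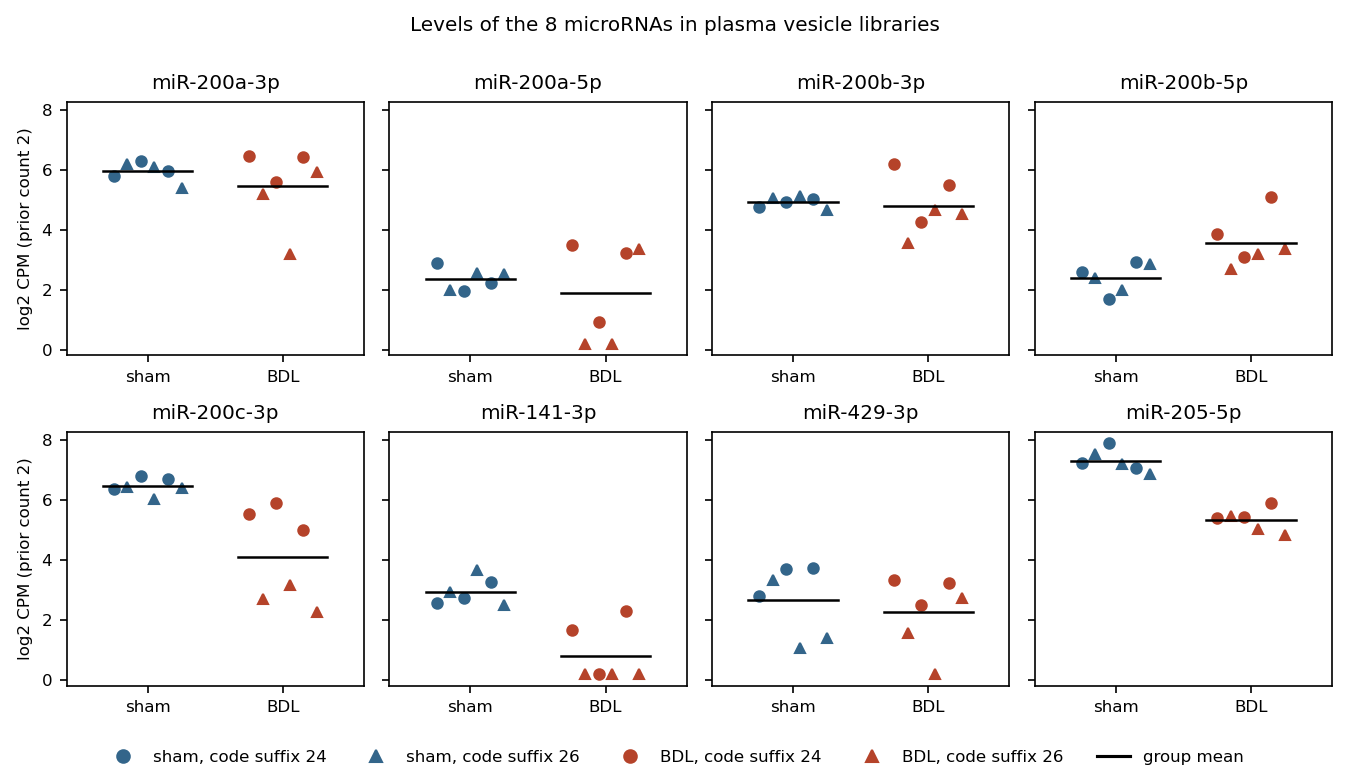
Level of each of the 8 microRNAs in every library, as log2 CPM with a prior count of 2 (vertical axis), for sham and BDL (horizontal axis), with circles for code suffix 24, triangles for suffix 26 and a line at the group mean. For miR-205-5p, miR-200c-3p and miR-141-3p every BDL point lies below every sham point, and the 3 suffix 26 points of miR-200c-3p lie below its other BDL points.

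miR-205-5p was the most abundant of the 8 in sham plasma vesicles. Its level there was 115.8 CPM at the lowest, 146.8 at the median and 236.3 at the highest. The BDL libraries gave 27.5 at the lowest, 41.6 at the median and 59.3 at the highest. The groups did not overlap, and the highest BDL library (BDL 5) was below the lowest sham library (sham 6). Mean levels were 40.8 ± 11 CPM after BDL and 160.8 ± 43.4 after sham surgery (SD, n = 6 each), and miR-205-5p fell by 1.94 ± 0.29 (SE) on the log2 scale, 3.85-fold (edgeR adjusted p = 8.39e-05). The exact permutation test gave p = 0.00216, the smallest it can give, and 0.0352 adjusted over all names. The relative spread was alike in both groups, with a coefficient of variation of 26.9% in BDL and 27.0% in sham. The change held within each suffix, with -1.84 ± 0.33 in suffix 24 (edgeR adjusted p = 0.00223) and -2.17 ± 0.45 in suffix 26 (edgeR adjusted p = 0.00209). The BDL values of suffix 26 rest on 24, 4 and 15 counts in BDL 2, 4 and 6, where the sham mean would have given 89.5, 20.1 and 87.6. The fits within a suffix had their own filter: in suffix 24, 12.9% of 403 names were lower and 18.4% higher, and in suffix 26, 18.1% of 265 names were lower and 20.4% higher.

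miR-200c-3p, of the chromosome 6 cluster, stood second in sham. The sham libraries ran from 64.3 CPM through a median of 85.2 to 110.8. In BDL the lowest was 3.67, the median 19.6 and the highest 58.7. No BDL library reached the lowest sham library, but the BDL libraries lay far apart: 45.6, 58.7 and 31.2 CPM in BDL 1, 3 and 5, and 5.39, 7.99 and 3.67 in BDL 2, 4 and 6. The latter values rest on 3, 1 and 2 counts, where the sham mean would have given 49.1, 11.1 and 48.1 counts at those depths. The BDL mean of 25.4 ± 23.4 CPM compared with a sham mean of 88.3 ± 16.4 (SD, n = 6 each). miR-200c-3p fell by 1.62 ± 0.49 (SE) on the log2 scale, 3.07-fold (edgeR adjusted p = 0.0141). By the exact permutation test p was 0.00216 and 0.0352 adjusted, but 0.133 adjusted when CPM used total counts without TMM scaling.

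The size of the miR-200c-3p change differed between the suffixes. In suffix 24 the BDL mean was 45.2 ± 13.8 CPM and the sham mean 98.4 ± 14.8 (SD, n = 3 each), a log2 change of -1.08 ± 0.33 (edgeR adjusted p = 0.0284). In suffix 26 they were 5.68 ± 2.18 and 78.2 ± 12.1, a change of -4.01 ± 0.58 (edgeR adjusted p = 1.95e-04). The test of the difference, suffix 26 minus suffix 24, gave -2.84 ± 0.67 on the log2 scale (edgeR interaction, adjusted p = 0.0246), where 2.35% of 341 names differed in either direction. With limma-voom the difference was -2.35 (adjusted p = 0.0527). Without the 3 shallow BDL libraries, a setting chosen after seeing the data, the overall change of miR-200c-3p was -0.93 (edgeR adjusted p = 0.0236). The same difference for miR-205-5p was -0.24 (edgeR adjusted p = 0.842).

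**Figure D2:**
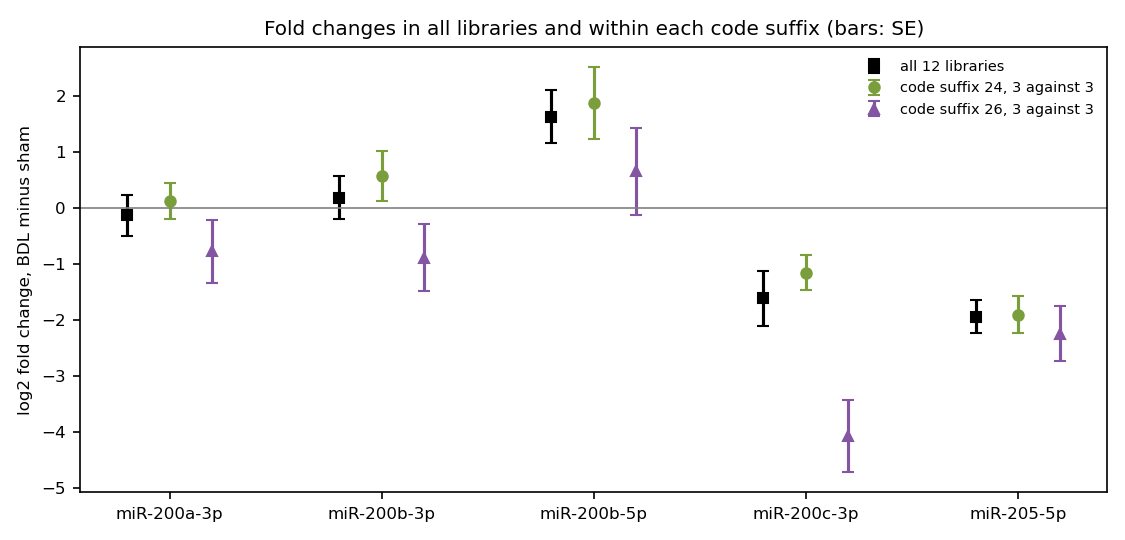
Log2 fold change, BDL minus sham (vertical axis, bars SE), of the 5 members that passed the filter (horizontal axis), for all 12 libraries and within each code suffix with the same 341 names kept. miR-205-5p is near -2 in all 3 fits, while miR-200c-3p is at -1.16 in suffix 24 and -4.08 in suffix 26.

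miR-141-3p, the neighbour of miR-200c-3p in its cluster, was sparse. The sham libraries held 3 to 17 counts each, at 4.57 CPM for the lowest, 6.04 for the median and 11.5 for the highest. BDL 1 held 10 counts (2.08 CPM) and BDL 5 held 6 (3.83 CPM), and the other 4 BDL libraries held 0. As listed, all BDL values were below all sham values, but the counts of 0 in BDL 2, 4 and 6 allow up to 5.39, 24 and 5.51 CPM, above the lowest sham value. At the sham mean of 6.93 ± 2.67 CPM (SD, n = 6), 18.5 counts would have fallen in BDL 3, and 3.86, 0.867 and 3.78 in BDL 2, 4 and 6. So the count of 0 in BDL 3 lies below what the sham level gives at its depth, whereas in BDL 4 a fall was not detectable. There 1 count is 7.99 CPM, within the sham range, so its place below sham rests on the absence of 1 count. The non-overlap and the exact test both include BDL 4. The mean log2 CPM was lower in BDL by a difference of -2.15 (exact permutation p = 0.00216, 0.0352 adjusted). With no count filter, edgeR gave a log2 change of -2.21 ± 0.71 (SE; adjusted p = 0.0297 over 1731 names). Within suffix 24 the change was -1.74 ± 0.84 (edgeR adjusted p = 0.131), and without the 3 shallow BDL libraries it was -1.87 (edgeR adjusted p = 0.0414).

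miR-200a-3p, of the chromosome 4 cluster, shares the seed of miR-141-3p. It was at 41.1 CPM in the lowest sham library, 64.6 at the median and 78.1 in the highest. Its BDL values were 7.99 at the lowest, 54.0 at the median and 86.1 at the highest. The BDL range enclosed the whole sham range, and the lowest value is 1 count in BDL 4. The log2 change was -0.14 ± 0.36 (SE; edgeR adjusted p = 0.792; exact permutation p = 0.439). It was 0.24 without the 3 shallow BDL libraries (edgeR adjusted p = 0.547).

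miR-200b-3p, with the seed of miR-200c-3p, was the steadiest member in sham. The libraries there ran from 24.4 CPM through a median of 30.5 to 33.6, a coefficient of variation of 12.4%. BDL gave 10.8 at the lowest, 23.0 at the median and 72.4 at the highest, a coefficient of variation of 71.4%. BDL 1 and BDL 5, at 72.4 and 44.0 CPM, lay above all sham libraries, and as listed the other 4 lay below all of them. The means of 31.9 ± 22.8 and 29.5 ± 3.67 CPM (SD, n = 6 each) therefore hide a wide spread. The values of BDL 2, 4 and 6 rest on 6, 3 and 12 counts, where the sham mean would have given 16.4, 3.69 and 16.1. In BDL 4, 1 count is 7.99 CPM, so its place just below the lowest sham library rests on 1 count. How much of the BDL spread is counting error was not tested. The log2 change was 0.18 ± 0.39 (SE; edgeR adjusted p = 0.734), and it changed sign to -0.36 without BDL 1 and to -0.02 with upper-quartile scaling. Within the suffixes it was 0.66 ± 0.45 in 24 and -0.81 ± 0.54 in 26 (edgeR adjusted p = 0.294 and 0.255), and the difference between suffixes was -1.41 (edgeR adjusted p = 0.273).

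miR-200b-5p, the opposite strand of the same hairpin, was the only member called higher. It passed the filter on low counts mostly through the BDL libraries, where it is high, and failed it without BDL 1, 3 or 5. Being tested by edgeR therefore depended on the same rise that the test then called. In sham miR-200b-5p was at 2.09 CPM in the lowest library, 4.46 at the median and 6.55 in the highest. The BDL libraries gave 5.39 at the lowest, 8.58 at the median and 33.2 at the highest. All 6 BDL libraries were above the sham median, and 5 of them above the highest sham library, BDL 2 being the exception. The values of BDL 2, 4 and 6 rest on 3, 1 and 5 counts. In BDL 4, 1 count is 7.99 CPM, so any count there lies above the highest sham library. The BDL mean was 12.8 ± 10.3 CPM and the sham mean 4.42 ± 1.76 (SD, n = 6 each), and the log2 change was 1.63 ± 0.47 (SE), 3.09-fold (edgeR adjusted p = 0.0111). The exact permutation test gave p = 0.00649 and 0.0729 adjusted over all names, which misses the threshold.

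The call of miR-200b-5p depended on single libraries. Without BDL 5, its highest library, the log2 change was 1.04 (edgeR adjusted p = 0.0586) with the same 341 names kept. Without sham 3 it was 1.30 (edgeR adjusted p = 0.0594) with the filter run anew and 1.41 (edgeR adjusted p = 0.0336) with the names kept. With no count filter it was 1.55 (edgeR adjusted p = 0.0609). In suffix 24 it was 1.94 ± 0.63 (edgeR adjusted p = 0.0348). In suffix 26 it did not pass that subset's filter, and with the 341 names kept it was 0.65 ± 0.78 (edgeR adjusted p = 0.558). The test of the difference between the suffixes gave -1.10 (edgeR adjusted p = 0.565). Without the 3 shallow BDL libraries the change was 2.01 (edgeR adjusted p = 0.00512).

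The remaining members of the chromosome 4 cluster were near the detection limit of the shallow libraries. miR-200a-5p held 69 counts over the BDL libraries, of which 49 were in BDL 1, and 44 over the sham libraries. Its range was 0 to 10.2 CPM in BDL (median 4.52) and 2.79 to 6.23 in sham (median 4.05). As listed, BDL 1, 5 and 6 lay above all sham libraries and BDL 2, 3 and 4 below all of them (exact permutation p = 0.515). BDL 3 held 2 counts where the sham mean would have given 11. The counts of 0 in BDL 2 and 4 allow up to 5.39 and 24 CPM, above the lowest sham value. The sham mean would have given only 2.30 and 0.516 counts there. The value of BDL 6 rests on 5 counts. miR-429-3p, with the seed of miR-200b-3p, held 72 counts in BDL and 82 in sham. It ran from 0 to 8.95 CPM in BDL (median 5.00) and from 0.960 to 12.1 in sham (median 7.42), with 1 count each in sham 4 and sham 6. Its groups overlapped over most of their range (exact permutation p = 0.55).

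In the Mir200b hairpin the 5p strand rose relative to the 3p strand, which remained the more abundant. The hairpin is printed because its 2 arms are the pair compared, with both mature strands in capitals, the 5p strand first (RefSeq, GRCm38.p6).
Mir200b hairpin: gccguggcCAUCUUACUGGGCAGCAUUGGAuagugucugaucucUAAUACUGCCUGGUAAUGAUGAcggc
Both strands come from 1 transcript, and the scaling enters their ratio within a library only through the prior count. The prior is scaled with library depth, so it weighs most at low CPM and damps the low counts of a shallow library little. The log2 ratio of 5p to 3p CPM ran from -3.23 through a median of -2.42 to -1.82 in sham. In BDL it ran from -2.35 through -1.16 to -0.40. BDL 1, the deepest library, lay within the sham range, and the other 5 BDL libraries lay above it. Of these, BDL 2, 4 and 6 held only 3, 1 and 5 counts of 5p and 6, 3 and 12 of 3p, so their ratios are imprecise. The difference between the groups was 1.29 ± 0.38 (SE; limma adjusted p = 0.0134). It ranked 4 among the 63 hairpins with both strands tested, where 12.7% shifted towards 5p and 25.4% towards 3p, and the median difference was -0.28. Both strands had to pass the filter to be tested, and the 5p strand of Mir200b passed mostly through the BDL libraries. Within the suffixes the difference had nearly the same size and missed the threshold, at 1.27 in suffix 24 (limma adjusted p = 0.0790) and 1.24 in suffix 26 (limma adjusted p = 0.0934). Over all counts the 5p strand made up 23.0% of the hairpin's counts in BDL (145 of 5p and 486 of 3p) and 13.2% in sham (47 and 310). BDL 1 held 64 and 348 of these BDL counts, and without it, a setting chosen after seeing the data, the BDL share was 37.0% (81 and 138). For the Mir200a hairpin, whose 5p strand did not pass the filter and which was not tested, the 5p shares were 8.66% and 6.18%. Here BDL 1 held 49 of 69 counts of 5p and 414 of 728 of 3p, and without it the BDL share was 5.99%, on the other side of the sham share.

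**Figure D3:**
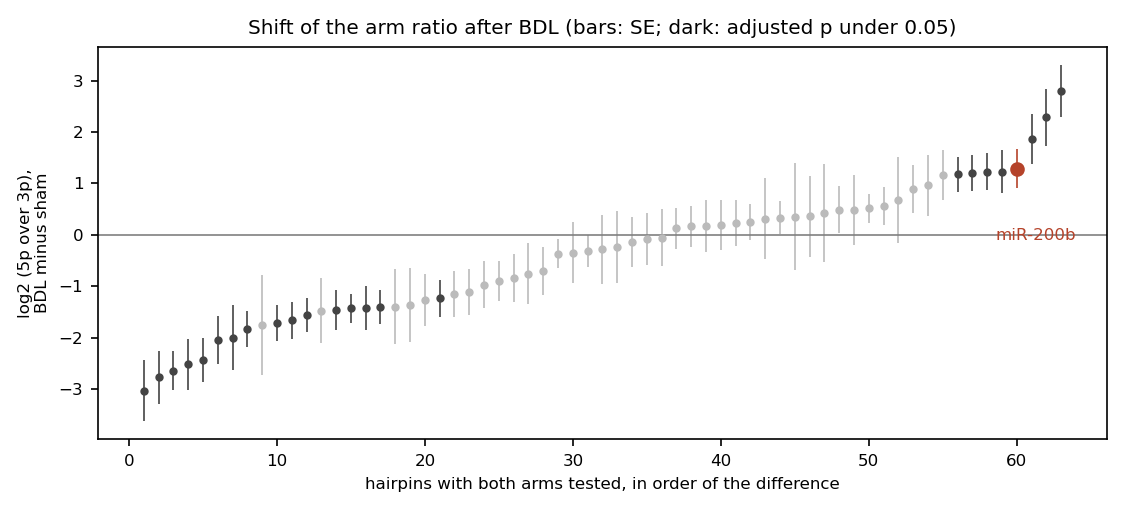
Difference between BDL and sham in the log2 ratio of 5p to 3p (vertical axis, bars SE) for the 63 hairpins with both strands tested, in order of the difference (horizontal axis), dark where the limma adjusted p was under 0.05. miR-200b, at 1.29, is the fourth from the top.

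Ratios between members that share a seed set the clusters side by side. These ratios were chosen after the levels had been seen and are given without a test. miR-200c-3p over miR-200b-3p ran from 0.91 to 1.88 on the log2 scale in sham, so miR-200c-3p was the more abundant in all 6 libraries. In BDL 3 it was 1.65, within the sham range, and in the other 5 BDL libraries it lay between -2.26 and -0.48, with miR-200b-3p the more abundant. Of these, BDL 2, 4 and 6 held only 3, 1 and 2 counts of miR-200c-3p and 6, 3 and 12 of miR-200b-3p, so their ratios are imprecise. miR-141-3p over miR-200a-3p ran from -3.56 to -2.43 in sham and had a mean of -4.66 ± 0.99 in BDL (SD, n = 6). BDL 4, with 0 and 1 counts, was the 1 BDL library within the sham range, and ratios with a count of 0 depend on the prior count. Between neighbours of 1 cluster the means stayed nearer, but the BDL libraries spread beyond the sham range. miR-200c-3p over miR-141-3p was 3.30 ± 1.32 in BDL (2.06 to 5.69) and 3.51 ± 0.61 in sham (2.37 to 4.06). miR-141-3p had 0 counts in BDL 2, 3, 4 and 6, so that BDL mean depends on the prior count. miR-200a-3p over miR-200b-3p was 0.69 ± 1.16 in BDL (-1.46 to 1.64) and 1.04 ± 0.22 in sham (0.73 to 1.38). Its lowest BDL value, in BDL 4, rests on 1 and 3 counts.

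**Figure D4:**
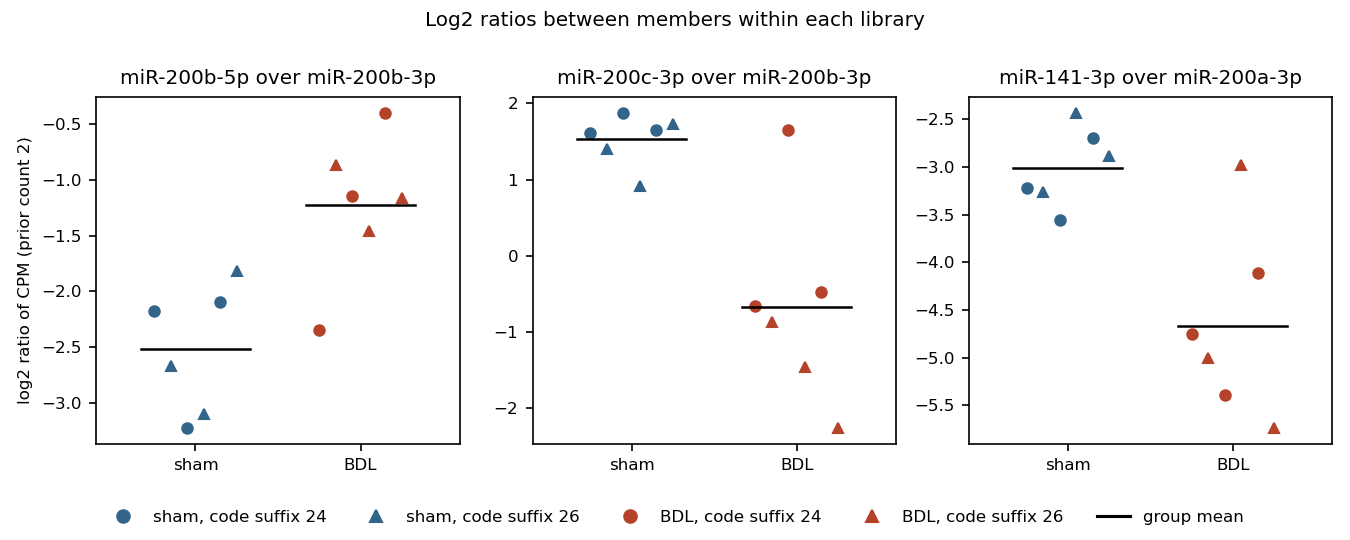
Log2 ratio of CPM (vertical axes) between 3 pairs of members in each library, for sham and BDL (horizontal axes), with circles for code suffix 24, triangles for suffix 26 and a line at the group mean. In the middle panel 5 of 6 BDL libraries lie below 0 and all sham libraries above it. The suffix 26 BDL points there rest on 1 to 3 counts of miR-200c-3p.

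Summed over its 5 names, the chromosome 4 cluster was at 108.0 ± 63.7 CPM after BDL and 107.5 ± 17.3 after sham surgery, while the 2 names of the chromosome 6 cluster summed to 26.4 ± 24 and 95.3 ± 15.4 CPM (SD, n = 6 each). All 8 members together summed to 175.3 ± 85.2 CPM after BDL and 363.5 ± 67.4 after sham surgery, a small part of the vesicle microRNA in either group. The order of mean levels in sham was miR-205-5p, miR-200c-3p, miR-200a-3p, miR-200b-3p, miR-141-3p, miR-429-3p, miR-200b-5p and miR-200a-5p. miR-205-5p exceeded miR-200c-3p in 6 of 6 sham libraries, miR-200c-3p exceeded miR-200a-3p in 5 of 6 with overlapping ranges, miR-200a-3p exceeded miR-200b-3p and miR-200b-3p exceeded miR-141-3p in 6 of 6, and the last 4 did not differ beyond their spread. The BDL order was miR-200a-3p, miR-205-5p, miR-200b-3p, miR-200c-3p, miR-200b-5p, miR-429-3p, miR-200a-5p and miR-141-3p, and every neighbouring pair had overlapping ranges. Among the 1915 mouse names the rank of miR-205-5p went from 99 in sham to 191 in BDL and that of miR-141-3p from 338 to 817, whereas miR-200b-3p went from 202 to 211. The BDL rank of miR-141-3p rests on a mean of 0.984 CPM. Since 1 count in BDL 4 is 7.99 CPM, a name with a single count there can rank above it, so that rank depends on depth. As a share of the members' own counts, miR-205-5p made up 43.8 ± 4.30% in sham and 27.0 ± 11.3% in BDL, and miR-200a-3p 17.2 ± 1.94% and 29.6 ± 11.3% (SD, n = 6 each).

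Other scalings moved the median change of all 341 names from 0.03 with TMM to -0.11 with DESeq2 size factors, 0.12 with total counts and -0.20 with upper-quartile scaling. Relative to that median, miR-205-5p stayed between -1.98 and -1.95, miR-200c-3p between -1.65 and -1.55, and miR-200b-5p between 1.57 and 1.64. miR-200b-3p stayed between 0.15 and 0.26 and miR-200a-3p between -0.17 and -0.14. A scaling shifts all names by about the same amount, so these ranges are narrow by construction and test nothing. The changes themselves ran from -2.15 to -1.86 for miR-205-5p, -1.80 to -1.42 for miR-200c-3p and 1.44 to 1.70 for miR-200b-5p. With total counts miR-200c-3p was near the threshold (edgeR adjusted p = 0.0471).

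Likeness to other names was measured as Pearson's r of log2 CPM over 12 libraries after the group means were removed, and the 3 names most like each tested member are given as a description. The points share libraries and depth. For miR-205-5p they were miR-92a-3p (r = 0.737), miR-499-5p (0.711) and miR-1945 (0.689). miR-200c-3p was most like miR-186-5p (0.899), miR-16-1-3p (0.882) and miR-142a-5p (0.878). For miR-200a-3p they were miR-140-5p (0.944), miR-215-3p (0.939) and miR-223-3p (0.935), for miR-200b-3p miR-30a-3p (0.820), miR-181b-5p (0.789) and miR-30a-5p (0.787), and for miR-200b-5p miR-10b-5p (0.690), miR-187-3p (0.641) and miR-30a-3p (0.585). Among the 5 members, r was highest between the strands of Mir200b (0.588) and lowest between miR-200b-5p and miR-205-5p (0.101).

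The other strands of the members' hairpins were nearly absent, with 27 counts of miR-200c-5p, 22 of miR-141-5p, 6 of miR-429-5p and 1 of miR-205-3p over all libraries, and none passed the filter. The most abundant of them, miR-200c-5p, had a BDL mean of 0.460 ± 0.595 CPM and a sham mean of 1.74 ± 1.14 (SD, n = 6 each). Of 13 further names known from epithelia, 8 were tested, 2 rose, 2 fell and 4 did not pass, with a median log2 change of 0.79 beside 0.03 over all names. Over all 341 names 24.6% rose and 18.2% fell, so this tally is near those shares. miR-192-5p, abundant in liver and gut, rose by 3.37 ± 0.34 (SE; edgeR adjusted p = 3.13e-06) and miR-182-5p, of a cluster active in sensory epithelia, rose by 1.73 ± 0.36 (edgeR adjusted p = 0.0013). miR-375-3p, known from pancreatic islets and epithelia, fell by 0.73 ± 0.22 (edgeR adjusted p = 0.0148), and miR-215-5p, a relative of miR-192, fell by 1.18 ± 0.30 (edgeR adjusted p = 0.00451). miR-203-3p, like miR-205 a microRNA of skin, had a BDL mean of 58.9 ± 42.1 CPM and a sham mean of 70.0 ± 12 (SD, n = 6 each), a log2 change of -0.19 ± 0.38 (edgeR adjusted p = 0.713).

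In bulk plasma vesicles, fewer vesicles from a cell type and less of a microRNA per vesicle cannot be told apart. Names of other cell types moved alongside the fall of miR-205-5p, miR-200c-3p and miR-141-3p. The tallies below stand beside 24.6% of all 341 names higher and 18.2% lower by the same test. The hepatocyte microRNA miR-122-5p summed to 60142 to 315859 CPM in BDL against 2694 to 22858 in sham. Of 4 leukocyte names 3 fell (miR-142a-5p, miR-142a-3p and miR-150-5p), with summed levels of 551.7 to 2208 CPM against 2798 to 6416. Both names of endothelium and platelets (miR-126a-3p and miR-126a-5p) fell, at 631.4 to 2619 against 3151 to 8883 CPM. Of 3 red cell names miR-451a fell and the most abundant, miR-486a-5p, did not pass, at 124016 to 377393 against 355869 to 552116 CPM in sum. Of 3 striated muscle names miR-1a-3p and miR-206-3p fell and the most abundant, miR-133a-3p, did not pass, at 615.4 to 1680 against 1088 to 1971 CPM. Of 4 mesenchymal names miR-145a-5p and miR-214-3p rose and miR-143-3p and miR-199a-3p fell, at 1091 to 2187 against 2411 to 3326 CPM. No name of these lists was at 0 in all libraries, and their part in the members' changes was not tested.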

How the data were processed

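ExoQuick was used to precipitate vesicles from 250 µl of plasma, per the labels' protocols, and NEBNext small RNA libraries were made from 40 ng of RNA with 15 PCR cycles. A tissue label names liver, and the site label names extracellular vesicles. The submitters' processing notes name cutadapt and STAR. Versions, genome build and annotation were not stated there. Deposited values are whole-number counts per microRNA name, with no normalization by the authors visible in them. The 67 names of other species were left out.

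Counts of all mouse names were fitted with edgeR 4.0.16 in R 4.3.3 (TMM scaling, filterByExpr by group, quasi-likelihood test, Benjamini-Hochberg adjustment over 341 names, threshold 0.05). The biological coefficient of variation was 45.5%. Names with counts in at least 3 libraries entered the exact permutation test on log2 CPM (prior count 2), and arm ratios were fitted with limma 3.58.1. The fits were tested on simulated data. The other settings were DESeq2 size factors, total counts, upper quartile, DESeq2 1.42.0, no filter, a filter of 10 counts in 6 libraries, limma-voom, a prior count of 0.5, the sample number as a block, the code suffix, and each library left out. Leaving out the shallow BDL libraries and keeping the 341 names in subsets were added after seeing the data.

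The members and the lists were chosen with earlier results of these data known. Named were all 8 members, the 3 names most like each tested member, and, of each list, the most abundant name and every name past the threshold. miR-203-3p was named after its value was seen. Same-numbered libraries were not paired by the labels.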

Additional observations from a re-analysis of the deposited data

Results flagged for a closer look

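The change of miR-200c-3p after BDL differed between the code suffixes by a direct test: suffix 26 minus suffix 24 was -2.84 on the log2 scale (edgeR interaction, adjusted p = 0.0246). In BDL the suffix 26 libraries are also the shallow ones, so suffix and depth cannot be told apart. For miR-200b-5p in BDL, BDL 5 stood apart on the CPM scale at 33.2 CPM, with the next library at 13.3: the gap is 0.715 of the group's range, above Dixon's 95% critical value for groups of this size. It was the 1 case among 16 groups of 6 (8 members, BDL and sham), of which chance marks about 1 in 20, and on the log2 CPM scale there were 0.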

How the results depend on the processing

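miR-205-5p and miR-200c-3p kept their fall past the threshold in all 12 fits that left out 1 library. The members found higher, 1 in all libraries (miR-200b-5p), were 0 with no count filter and 0 in suffix 26 with its own filter or with the 341 names kept, and ranged from 0 to 1 when 1 library was left out. miR-200b-5p failed the filter without BDL 1, 3 or 5, and missed the threshold without sham 3; with names kept it lost its call without BDL 5 and in none of the other 11 fits. Over all names, suffix 26 gave 54 higher. By the exact permutation test 3 members passed; leaving out 1 library gave 0 to 4, with 0 whenever a sham library was left out (the cause was not tested). Within suffix 24 and suffix 26 it was 0, where the smallest p is 0.1, so that test is void. The arm difference of miR-200b was 1.27 in suffix 24 and 1.24 in suffix 26, both past no threshold, with fewer libraries. The suffix difference of miR-200c-3p was -2.35 with limma-voom (adjusted p = 0.0527). Of the members not past the threshold, 3 changed sign and miR-429-3p did not. miR-200a-3p was 0.20 in suffix 24, 0.12 there with names kept, 0.24 without the shallow libraries, and 0.16 in suffix 24 as a difference of log2 CPM. miR-200a-5p was 0.41 with no filter, 0.59 in suffix 24, 0.64 without the shallow libraries, and 0.19 in suffix 24 as a difference of log2 CPM, against -0.45 in all libraries. miR-200b-3p was -0.023 with upper quartile, -0.81 in suffix 26 and -0.89 there with names kept, -0.36 to 0.31 over fits without 1 library (0.30 at most with their own filter), and 0.44 in suffix 24 as a difference of log2 CPM, against -0.14 in all libraries. With the sample number as a replicate block, 72 names were higher and 61 lower, miR-200b-3p was -0.070, and the calls of the members and of the arm difference stayed. Same-numbered libraries deviated together (r over 0.1) in 2 of 6 pairs, a tally too small to show whether the numbers pair them. Depth limits 6 of 8 members in the shallowest library, BDL 4, where miR-141-3p, miR-200a-5p and miR-429-3p had 0 counts and miR-200a-3p, miR-200b-5p and miR-200c-3p had 1.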
